A study of Mus musculus with 8 samples.

Results

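Interferon-responsive microglia were microglia of the injured cortex that carried several interferon-induced antiviral transcripts at once and were not dividing. Of 46216 droplets kept over 8 mice, 19821 were microglia and 3275 of these were interferon-responsive, which is 16.5% of the microglia and 7.09% of all cells. A droplet was kept with at least 2000 unique molecular identifiers (UMIs, 1 per captured transcript) and less than 20% mitochondrial UMIs. Microglia had a UMI for at least 3 of P2ry12, Tmem119, Sall1, Gpr34 and Siglech, with less than 5 UMIs per 10000 from the fibroblast collagens Col1a1 and Col1a2 together and less than 2 from the endothelial genes Cldn5 and Flt1 together. Interferon-responsive cells had in addition a UMI for at least 3 of Ifit2, Ifit3, Rsad2, Usp18 and Oasl2, and for fewer than 3 of the division genes Mki67, Top2a, Cenpf, Cdk1 and Ccnb2. The other 15798 non-dividing microglia served for comparison, and 748 dividing microglia were set aside.

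The mice were labelled as female and of the genotype Bl/J6, whereas the study's methods name another substrain and both sexes, and all had photothrombosis (PT), a light-induced clotting of cortical vessels that leaves a focal stroke, in the right sensorimotor cortex. From 2 days before PT, osmotic minipumps under the skin gave saline to 4 control mice and ancrod to 4 mice, at 2.4 U or 2.0 mg per kg each day. Ancrod is a snake venom enzyme that depletes the clotting protein fibrinogen from blood, so the comparison asks whether these cells depend on fibrinogen. The lesion and the spared tissue around it were taken 6 days after PT without sorting, and each mouse gave 1 single-cell RNA library. No uninjured tissue was analysed here, so nothing below says how many such cells a healthy cortex holds. Batch, given in the labels for injury and sequencing together, was 1 for replicates 1 to 3 of each group and 2 for replicate 4.

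Type I interferons are cytokines that bind a receptor of Ifnar1 and Ifnar2 chains. The receptor acts through the kinases Jak1 and Tyk2 to activate transcription factors that join Irf9 and bind interferon-stimulated response elements in the promoters of antiviral genes. The Ifit proteins bind foreign RNA, Rsad2 (viperin) makes a chain-terminating nucleotide, Oasl2 belongs to the oligoadenylate synthetase family and Usp18 removes the ubiquitin-like protein Isg15 from its targets and damps the receptor. Microglia are the resident macrophages of the brain, and such an interferon-responsive state is known among them in injury, ageing and viral infection.

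The promoters below are shown as examples that hold the letters of the response element, which not every gene of this state did: Ifit2 and Oasl2, both used to choose the cells, and Cmpk2 and Oasl1 had none in the window searched. They are bases 250 to 41 before the transcription start of Ifit3 and Rsad2, which were used to choose the cells, and of Ifit1, Isg15 and Cxcl10, which were not. They come from RefSeq (table build GRCm38.p6), were found in GRCm39 by exact match, and lie on the plus strand at chr19:34560679-34560888 (Ifit3) and chr19:34618039-34618248 (Ifit1), and on the minus strand at chr12:26506492-26506701 (Rsad2), chr4:156285316-156285525 (Isg15) and chr5:92496789-92496998 (Cxcl10). All are upstream of the annotated start. Each runs 5′ to 3′ on the gene's strand, and capitals mark GAAANNGAAA, the core of the response element, or its complement where the copy lies on the other strand.
Ifit3: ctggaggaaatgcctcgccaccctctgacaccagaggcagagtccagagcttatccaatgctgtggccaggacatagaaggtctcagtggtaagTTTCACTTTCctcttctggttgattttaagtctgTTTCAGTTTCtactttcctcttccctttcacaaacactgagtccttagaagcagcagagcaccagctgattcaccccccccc
Rsad2: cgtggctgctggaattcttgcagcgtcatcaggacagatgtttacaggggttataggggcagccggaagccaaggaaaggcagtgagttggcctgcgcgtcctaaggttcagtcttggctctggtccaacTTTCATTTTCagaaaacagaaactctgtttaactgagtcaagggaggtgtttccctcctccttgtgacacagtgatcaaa
Ifit1: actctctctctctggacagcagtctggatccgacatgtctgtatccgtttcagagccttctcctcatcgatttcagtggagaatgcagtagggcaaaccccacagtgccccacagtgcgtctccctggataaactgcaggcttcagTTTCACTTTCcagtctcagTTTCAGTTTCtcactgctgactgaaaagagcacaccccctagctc
Isg15: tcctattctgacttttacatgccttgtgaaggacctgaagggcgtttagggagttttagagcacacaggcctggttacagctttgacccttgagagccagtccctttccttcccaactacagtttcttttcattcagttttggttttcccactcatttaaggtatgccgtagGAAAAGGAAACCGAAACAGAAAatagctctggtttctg
Cxcl10: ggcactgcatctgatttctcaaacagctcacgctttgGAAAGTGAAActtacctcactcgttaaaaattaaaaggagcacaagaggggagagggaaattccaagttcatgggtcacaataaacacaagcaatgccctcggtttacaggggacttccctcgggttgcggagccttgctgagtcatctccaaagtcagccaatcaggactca

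Ifit3 and Ifit1 each held 2 copies, both on the other strand, between bases 156 and 113 and between bases 104 and 76 before the start. Isg15 held 3 overlapping copies as written, between bases 78 and 57. Rsad2 and Cxcl10 held 1 copy each. Among all 27025 genes with a promoter in the table, 3.99% had the letters on either strand between 250 bases before and 50 after the start. A match is a string of letters and was not tested for binding.

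The genes used to choose the cells were high in every mouse by construction, and their levels are given as a description. Levels are counts per 1000000 UMIs (CPM), from UMIs summed over the cells of a mouse, in the order of replicates 1 to 4. Ifit2 in interferon-responsive microglia was at 346, 343, 260.3 and 273 CPM in control mice and at 380.5, 244, 303 and 297 CPM in ancrod mice. In the other microglia Ifit2 was at 11.98, 4.55, 5.01 and 14.9 CPM in control mice and at 8.57, 9.26, 10.9 and 6.84 CPM in ancrod mice. The 2 treatment groups overlapped in both kinds of cell, and the mean log2 ratio of interferon-responsive to other microglia was 5.01 ± 0.59 (SD, n = 8 mice, with 1 CPM added). For the remaining 4 genes that ratio was 4.85 ± 0.50 for Ifit3, 4.72 ± 0.36 for Rsad2, 3.81 ± 0.30 for Usp18 and 3.13 ± 0.42 for Oasl2 (SD, n = 8). Oasl2 was also the gene most often seen outside the set, with a UMI in 19.8% of the other microglia on average, against 88.7% of the interferon-responsive cells. Rsad2 was the least often seen, in 61.7% of the interferon-responsive cells and 5.86% of the others. Ifit3 shares near-identical stretches with Ifit3b, and Oasl2 with Oasl1, so that reads could be divided between such copies or lost.

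The cells did not divide sharply from their neighbours at the limit of 3 genes. Of the interferon-responsive cells 1320 had 3 of the 5 genes, 970 had 4 and 985 had all 5, and just outside the limit 2149 microglia had 2 genes. A further 4210 had 1 gene and 9439 had none. Interferon-responsive cells were more deeply sampled, with a median of 13898 to 20899.5 UMIs per cell over the mice against 10748 to 17655 in the other microglia, so that a set defined by detection favours deep cells. In free RNA, taken from droplets of at most 100 UMIs, Ifit2 was at 0.193 to 0.508 per 10000 UMIs, above the other microglia (0.046 to 0.149) and below the interferon-responsive cells (2.44 to 3.81). Free RNA was at 0.401 to 1.24 for Ifit3, against 2.68 to 4.15 in interferon-responsive cells. It was at 0.266 to 0.686 against 1.52 to 2.05 for Oasl2, at 0.231 to 0.503 against 1.35 to 2.35 for Rsad2 and at 0.148 to 0.330 against 0.891 to 1.31 for Usp18. Single UMIs of these genes in other microglia can therefore come from free RNA, and its part in the count of cells was not tested.

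Antiviral effectors outside the rule were higher in interferon-responsive microglia, which is a description, since the cells were chosen on genes of the same response. Of the 24 on the list, 22 reached 20 CPM in every mouse in the kind of cell where they were higher, and these 22 were higher in 8 of 8 mice, where 8.20% of all 5705 genes at that level were. Genes such as Ifit1, Ifit3b, Cmpk2, Oasl1 and Mx1 reached 20 CPM through the interferon-responsive cells alone, so their direction was fixed by that filter. Of the 24, 12 had at least 20 CPM on average in the other microglia, and these 12 were higher in 8 of 8 mice, where 6.81% of 6006 genes were (15.2% were lower). Their median log2 ratio was 1.84, against 2.35 over the 22 genes and -0.04 over all genes with either filter. The log2 ratios ran from 0.86 for Ifi27l2a to 4.64 for Ifit1. Ifit1, which binds RNA that lacks the host's cap methylation, was at 118, 137, 85.8 and 97.4 CPM in control mice and at 137, 78.4, 118 and 111 CPM in ancrod mice. In the other microglia Ifit1 stayed between 1.73 and 5.77 CPM, so no mouse overlapped. Isg15, the ubiquitin-like protein that is attached to proteins under interferon, was at 361, 428, 345 and 339 CPM in control mice and at 395, 295, 325 and 397 CPM in ancrod mice. The other microglia had 28.6 to 48.8 CPM of Isg15, and the log2 ratio was 3.27 ± 0.30 (SD, n = 8).

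Guanylate-binding proteins and immunity-related GTPases, which attack the vacuoles of intracellular microbes and respond to both interferon types, had log2 ratios with a median of 1.56 over the 8 of 12 genes that passed 20 CPM, most of them through the interferon-responsive cells alone. Only Irgm1 and Gbp7 had at least 20 CPM on average in the other microglia, and both were higher in 8 of 8 mice, where 6.81% of all such genes were. The highest ratio of the list was that of Iigp1, at 89.4, 84.5, 69.2 and 148 CPM in control mice and 101, 68.4, 83.9 and 64.5 CPM in ancrod mice. In the other microglia Iigp1 was at 1.18 to 4.08 CPM in 7 mice and at 15.3 CPM in control mouse 4, and the log2 ratio was 4.30 ± 0.55 (SD, n = 8). Control mouse 4 thus had more Iigp1 in both kinds of cell than any other mouse. Of the nucleic acid sensors and adaptors, 7 of the 10 with at least 20 CPM on average in the other microglia were higher in 8 of 8 mice, with a median of 0.81. Of the 12 that reached 20 CPM in the kind of cell where they were higher, Ifi211, of a family of DNA-binding proteins, had the highest ratio (3.42). Ifi211 reached 20 CPM through the interferon-responsive cells alone, with 5.11 to 12.7 CPM in the other microglia, so its direction was fixed by that filter. The adaptor Sting1, which relays cytosolic DNA sensing, was at -0.10.

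The signalling chain itself was uneven. Of 13 signalling genes at 20 CPM or more, 5 were higher and 2 lower in 8 of 8 mice, where 8.20% of all genes were higher and 15.4% lower, so the lower ones were no more frequent than among all genes. The median log2 ratio was 0.10. The higher genes included Irf7 (2.32), Stat2 (2.04), Irf9 (0.62) and Irf8 (0.14), of which Irf7, Stat2 and Irf9 are known to be induced by interferon. Irf7, which drives a second wave of interferon genes, was at 153, 146, 118 and 133 CPM in control mice and at 151, 126, 139.7 and 135 CPM in ancrod mice, against 16.2 to 44.1 CPM in the other microglia. The receptor chains Ifnar1 and Ifnar2 had log2 ratios of -0.03 and -0.01. The interferon-gamma receptor chain Ifngr1 was lower in every mouse, at 287, 256.1, 237 and 256.8 CPM in control mice and 269, 262, 255.7 and 219.6 CPM in ancrod mice. In the other microglia Ifngr1 was at 376, 338, 291 and 333 CPM and at 319, 315, 312 and 279 CPM, so that the log2 ratio was -0.33 ± 0.06 (SD, n = 8) although the ranges overlapped between mice.

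Class I genes of antigen presentation were higher. Of the 12 class I genes, 11 were higher in 8 of 8 mice, where 8.20% of all 5705 genes were, with a median log2 ratio of 0.45, led by Nlrc5 (1.27), the transactivator of class I genes, and Tap1 (1.10), a subunit of the peptide transporter. The abundant chains had small ratios, with 0.16 for H2-D1 and 0.19 for B2m, and H2-Q4 was not higher in every mouse. Of the 6 class II genes at 20 CPM or more, none was higher in 8 of 8 mice, and the median was -0.02. H2-DMa was lower in 8 of 8, which no class II gene was without doublets or after thinning, and 1 of 6 is near the 15.4% of all genes. Class II transcripts were common in free RNA, where H2-Aa was at 138 to 314 CPM, above interferon-responsive (29.3 to 112 CPM) and other microglia (21.3 to 106 CPM), so that low class II counts in these cells can be background. Of 8 chemokines with at least 20 CPM on average in the other microglia, 6 were higher in 8 of 8 mice, where 6.81% of all 6006 such genes were, with a median log2 ratio of 0.67. Cxcl10, which draws T cells through Cxcr3, was at 711, 896, 699 and 678 CPM in control mice and at 969.5, 699, 944 and 1020.5 CPM in ancrod mice, against 126 to 238 CPM in the other microglia. Ccl12, a monocyte attractant, was at 954 to 1244 CPM against 309 to 494 CPM. The log2 ratios were 2.08 ± 0.28 for Cxcl10 and 1.53 ± 0.25 for Ccl12 (SD, n = 8).

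With all UMIs, genes of resting microglia were slightly lower. Of 10 homeostatic genes that were not used in the rule, none was higher and 7 were lower in 8 of 8 mice, with a median log2 ratio of -0.13, against 15.4% of all genes lower in 8 of 8. Genes of injury-responsive microglia had no common direction, with 2 of 13 higher in 8 of 8 mice, where 8.20% of all genes were, 1 lower and a median of 0.05. The 2 were Axl, a receptor for dying cells that interferon is known to raise, at 147 to 209 CPM against 80.3 to 121 CPM, and Cst7, a cysteine protease inhibitor (0.32). None of 9 immediate early and heat shock genes, which respond to handling, was higher or lower in 8 of 8 mice.

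Ranked over all genes at 20 CPM or more, the 20 highest ratios held the 5 rule genes and Ifit1, Ifit3b, Iigp1, Cmpk2, Oasl1, Mx1, Ifi206, Ifi211, Isg15, Ifi213, Gm4951, Ifi209, Phf11a, Slfn5 and Phf11d. Their log2 ratios ran from 5.01 for Ifit2 to 2.60 for Phf11d. Only Oasl2 (20.7), Isg15 (36.7) and Slfn5 (48.6) had at least 20 CPM on average in the other microglia. The rest of the 20 passed through the interferon-responsive cells, so their direction was fixed by that filter, and the ranking is a description. Several of these lie side by side in the genome. Ifit2, Ifit3, Ifit3b and Ifit1 lay within 104 kb on chromosome 19 (GRCm39, 34527932 to 34632174), and Ifi206, Ifi213, Ifi209 and Ifi211 within 445 kb on chromosome 1 (173296051 to 173740612). Such duplicated genes share sequence, and reads that matched several copies may have been dropped or misplaced, so the level of each copy is uncertain. The lowest ratios ran from -0.79 for the B cell adaptor Bank1 and -0.67 for the sulfotransferase Chst8 to -0.50 for the kinase Prkca. For all 10 the control mean was more negative than the ancrod mean, as for Bank1 (-0.94 and -0.64), Chst8 (-0.88 and -0.47) and P3h2 (-0.87 and -0.42). In the test of that difference given at the end, 6429 of all 13326 genes had a higher ratio with ancrod. None of the 10 passed it, and it called 0 of the 13326 in edgeR. Depth also set the 2 kinds of cell further apart, in proportion, in each control mouse than in any ancrod mouse. Its part was not tested.

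**Figure D1:**
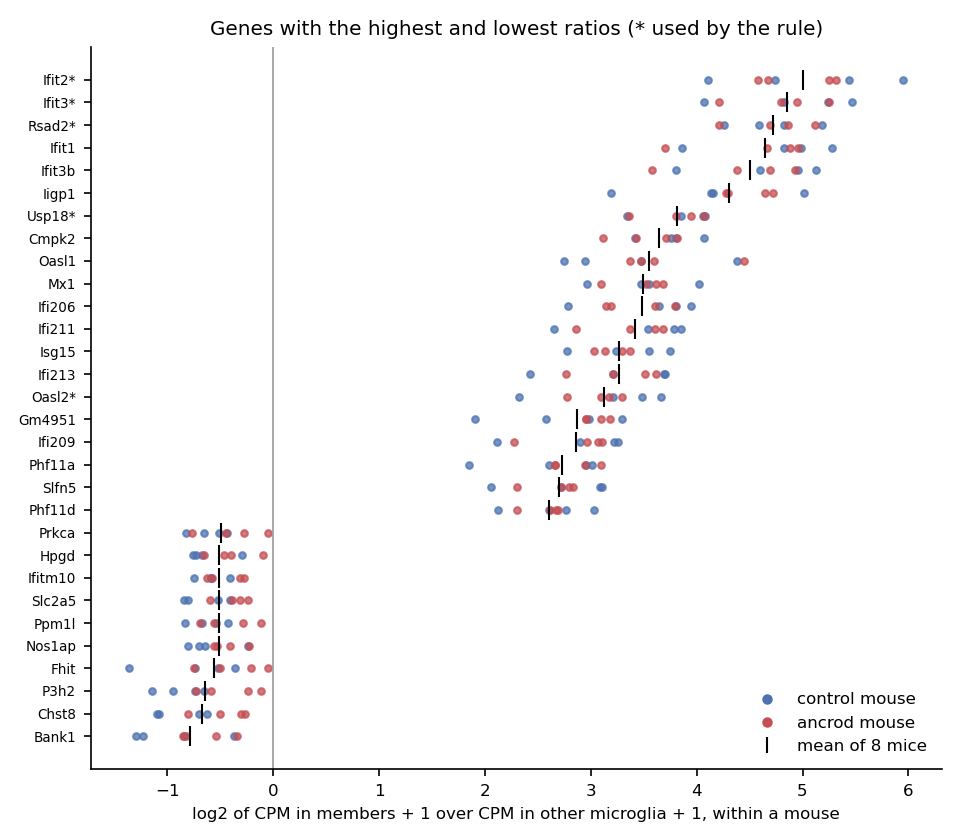
Log2 ratio of the level in interferon-responsive microglia (named members on the axis) to that in other microglia (CPM + 1 in each) for the 20 genes with the highest and the 10 with the lowest mean ratio, with 1 point per mouse, colour for treatment, a bar for the mean and an asterisk for the genes used to choose the cells. Means run from 5.01 for Ifit2 to 2.60 for Phf11d and, on the other side, from -0.50 for Prkca to -0.79 for Bank1. Genes needed 20 CPM only in the kind of cell where they were higher.

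The letters GAAANNGAAA were counted over genes with at least 20 CPM on average in the other microglia, without the rule genes, a filter chosen after seeing the data so that no gene entered only through the cells where it was high. Of the 329 matched genes higher in 8 of 8 mice 13.7% had the letters, as did 2.19% of the 732 lower ones and 3.89% of all 4858 matched. The higher and lower genes were chosen on the contrast that chose the cells, so these shares are a description. By list, 12 of 18 matched antiviral effectors and 8 of 9 GTPases had them, as did 4 of 9 sensors, 3 of 10 class I genes, 2 of 13 signalling genes, 5 of 15 interferons and other receptors, 1 of 4 chemokines (Cxcl10), 1 of 12 injury-responsive genes, 0 of 4 class II genes and 0 of 7 homeostatic genes. Of the rule genes, Usp18 was not matched.

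The groups of genes differed in how they followed the number of rule genes detected, from 0 to 5, over all non-dividing microglia. Summed over the list, antiviral effectors were at 1152, 1657, 2175, 2897, 4012 and 7519 CPM (means of 8 mice), and the lowest mouse at 5 genes (6816) exceeded the highest at 4 (4472). GTPases were at 119, 137, 174, 216, 388 and 995 CPM. Both lists thus had their largest step between 4 and 5 genes. Class I genes went from 6225 to 8228 CPM and homeostatic genes from 12439 down to 10944 CPM, without large steps. Injury-responsive genes had means of 32400, 37843, 40012, 39718, 37709 and 33768 CPM, lower at 0 and 5 genes than between. The mice did not share the number of genes at which this list was highest. Cells with more UMIs have more of the 5 genes detected, so depth moves along the same axis.

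**Figure D2:**
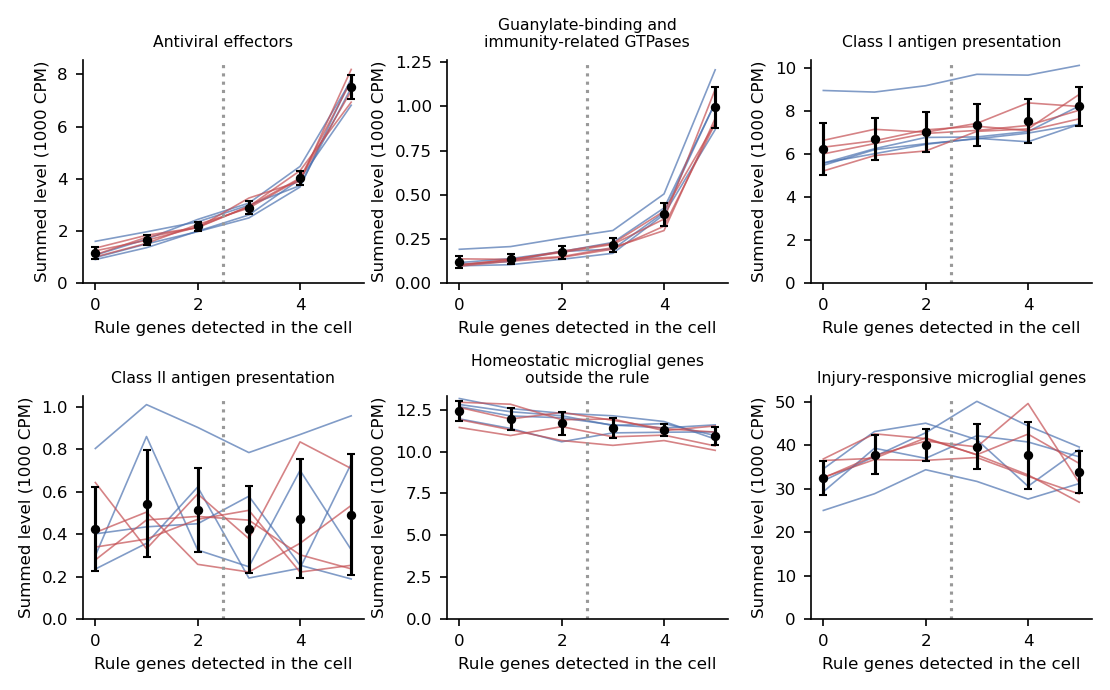
Summed level of 6 gene lists (1000 CPM) in non-dividing microglia by the number of the 5 rule genes detected, with 1 line per mouse, colour for treatment (control blue, ancrod red), black points and bars for the mean and SD of 8 mice, and a dotted line at the limit of the rule. Antiviral effectors reach a mean of 7519 CPM at 5 genes, whereas injury-responsive genes have their highest mean, 40012 CPM, at 2 genes, and control mouse 4 is the top line for class I genes.

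With every cell of at least 5000 UMIs thinned to 5000 and the cells chosen again on the thinned counts, the antiviral median was 2.78 and the GTPase median 2.31, over the same 22 and 8 genes. Over the 7 chemokines at 20 CPM or more the median was 1.20, against 0.53 with all UMIs, and the class II median was -0.30, against -0.02. Of the homeostatic genes 3 in place of 7 were then lower in 8 of 8 mice. Their median was -0.07, no longer below that of all genes, which was -0.095 after thinning. Of the 13 injury-responsive genes 1 was higher and 4 were lower, where 7.47% of all 5705 genes were higher and 10.2% lower, and Spp1 (osteopontin) went from -0.30 to -1.22 and the phagocyte gene Gpnmb from 0.08 to -1.46. The injury-responsive median was then -0.13, against 0.05 with all UMIs. Thinning lowers depth and also leaves a smaller set of cells with more rule gene transcripts, and these cannot be told apart here.

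Markers of macrophages and astrocytes were seen more often in interferon-responsive than in other microglia. Interferon-responsive cells also had more UMIs at the median in each mouse, and deeper cells show a UMI of more markers. The part of depth was not tested. At least 3 of 7 markers of infiltrating macrophages had a UMI in 10.0 to 25.3% of these cells over the mice, against 6.404 to 17.2% of the other microglia, higher in 8 of 8 mice, and their summed level was 2171 to 4179 CPM against 2036 to 3834 CPM, higher in 5 of 8. At least 3 astrocyte markers were seen in 1.39 to 21.6% against 1.38 to 16.8%, higher in 7 of 8 mice. The shares were almost equal in control mouse 3 (1.39 against 1.38%) and ancrod mouse 1 (5.11 against 5.09%). The summed astrocyte markers were at 160 to 1933 CPM against 220.1 to 745.5 CPM, higher in 7 of 8 mice, with the widest gaps in control mouse 1 (1933 against 715) and ancrod mouse 2 (1512 against 746). Markers of border-associated macrophages reached 3 in 1.08 to 7.29% against 0.908 to 2.72%, higher in 7 of 8 mice. Fibroblast markers reached 3 in 0.225 to 5.78%. Endothelial, neutrophil, T and NK cell, dendritic, neuronal, oligodendrocyte and mural lists reached 3 markers in at most 1.39% of the cells of any mouse. A doublet procedure marked 7.11% of interferon-responsive cells and 4.50% of all microglia, and the antiviral median without marked droplets was 2.42. The part of the macrophage and astrocyte transcripts in the values above was not tested.

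Of the interferons themselves, Ifnb1, a type I interferon that macrophages make on sensing nucleic acid, was the 1 with levels given here, the others of the list being at or near 0. Ifnb1 was at 5.99, 7.15, 1.06 and 13.2 CPM in interferon-responsive microglia of control mice and at 2.28, 6.19, 8.51 and 0.516 CPM in those of ancrod mice. In the other microglia it was at 0.499, 1.51, 0.222 and 0.675 CPM in control mice and at 0.43, 2.65, 0.419 and 1.43 CPM in ancrod mice. It was thus higher in the interferon-responsive cells of 7 of 8 mice, ancrod mouse 4 being the exception. A UMI of Ifnb1 was found in 0.3496% of microglia with none of the 5 rule genes, in 0.523, 0.791, 1.06 and 1.13% of those with 1 to 4, and in 3.65% (36 of 985 cells) of those with all 5. The cells were few and uneven, and 1 cell of control mouse 4 held 90 of the 165 Ifnb1 UMIs in interferon-responsive cells of that mouse. Macrophages, endothelial cells and astrocytes had a UMI in 0 to 0.279% of cells per mouse. Free RNA held 0.152 to 4.22 CPM. Between the treatments Ifnb1 in interferon-responsive microglia had a log2 fold change of -0.64 (SE 0.75, edgeR unadjusted p = 0.414, adjusted p = 1.00).

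The share of microglia that were interferon-responsive varied among mice more than between the treatments. With all UMIs and dividing cells in the denominator it was 16.1, 12.8, 9.80 and 22.01% in control mice and 21.6, 21.7, 14.8 and 14.4% in ancrod mice. Because ancrod libraries were all deeper than control libraries (97861434 to 142139441 UMIs over the 8), the share was compared after thinning 18085 microglia of at least 5000 UMIs to 5000 each. The thinned share was 8.79, 5.18, 3.79 and 8.58% in control mice and 9.73, 9.05, 7.05 and 5.81% in ancrod mice. Control mice 1 and 4 lay among the ancrod mice, and ancrod mice 3 and 4 lay among the control mice. The means were 6.58 ± 2.49% and 7.91 ± 1.80% (SD, n = 4 each), a difference of 1.33 percentage points that was not larger than the spread between mice (two-sided exact permutation test over 70 arrangements, p = 0.371, smallest possible 0.0286). Within batch 1 the ancrod mean was higher by 2.69 points (exact permutation test, p = 0.2, smallest possible 0.1), and in batch 2, with 1 mouse of each group, the ancrod mouse differed by -2.76 points. Without control mouse 4 the thinned difference was 1.99 points (exact permutation test, p = 0.257), and without control mouse 3 it was 0.398 points (exact permutation test, p = 0.771). The unthinned means were 15.2 ± 5.23% and 18.1 ± 4.09% (SD, n = 4 each, exact permutation test, p = 0.457).

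**Figure D3:**
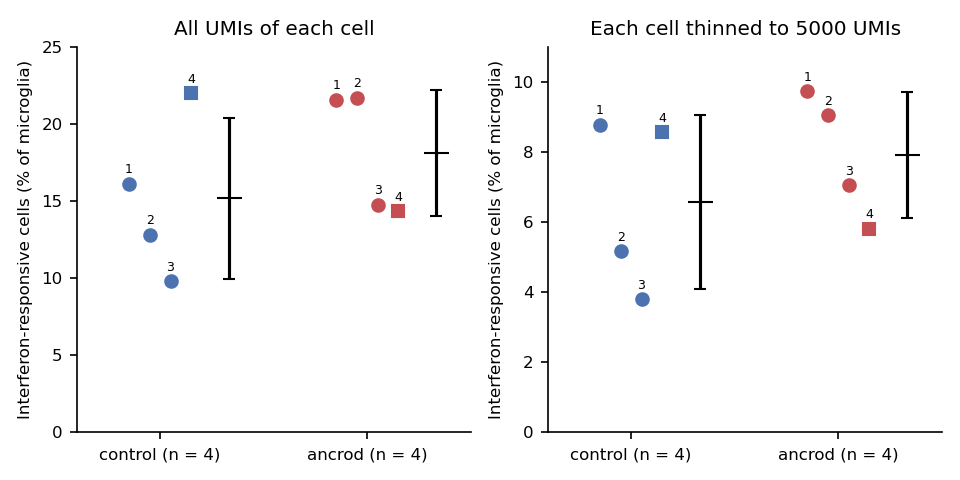
Interferon-responsive cells as a percent of microglia in each mouse, with all UMIs (left) and after thinning to 5000 UMIs (right), with replicate numbers, squares for batch 2 and bars for the mean and SD of 4 mice. After thinning, control mice lie between 3.79 and 8.79% and ancrod mice between 5.81 and 9.73%, and the groups overlap.

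Other cell classes carried the same genes to different degrees. Each had a UMI for at least 3 of its own markers, for fewer than 3 of the microglial genes and for fewer than 3 markers of each other class. Microglia had no such limit on macrophage or astrocyte markers, so a cell with both kinds of marker counted as microglia. Dividing cells stayed in the total of each class but were not counted as having the genes. The part of both in the differences below was not tested. At 5000 UMIs, 17.5 ± 3.80% of endothelial cells had at least 3 of the 5 genes, against 7.25 ± 2.13% of microglia, 6.07 ± 3.25% of astrocytes and 4.24 ± 2.17% of infiltrating macrophages (SD, n = 8 mice). Endothelial cells were above microglia in 8 of 8 mice, by 10.2 percentage points on average (two-sided exact sign-flip permutation test, p = 0.00781, adjusted p = 0.0234 over 3 classes). Microglia were above macrophages in 7 of 8 mice, by 3.01 points (exact permutation test, p = 0.0156, adjusted p = 0.0234), the exception being control mouse 4 with 8.88% of macrophages. Without thinning that difference was 3.60 points and did not pass the test (exact permutation test, p = 0.133). Microglia and astrocytes differed by 1.18 points (exact permutation test, p = 0.156, adjusted p = 0.156), and without control mouse 4, which had 12.4% of astrocytes, by 1.90 points (exact permutation test, p = 0.0156).

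The 5 genes did not contribute alike in the classes. Endothelial cells at 5000 UMIs had Oasl2 in 38.1%, Ifit3 in 33.2%, Rsad2 in 28.8% and Usp18 in 20.8% of cells on average, whereas microglia had them in 17.1, 14.1, 8.00 and 9.22%. Ifit2 was closer, in 12.9% of endothelial cells and 11.8% of microglia. Mx1 went the other way. It had a UMI in 20.8 to 30.03% of interferon-responsive microglia, in 1.37 to 5.82% of other microglia and in 0.172 to 1.14% of endothelial cells at 5000 UMIs. Isg15 had a UMI in 45.9 to 59.7% of endothelial cells in 51.3 to 61.2% of interferon-responsive microglia and in 10.98 to 17.4% of other microglia, so that endothelial cells overlapped the interferon-responsive microglia over mice. The microglial subsets were chosen on interferon genes and the endothelial cells were not.

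**Figure D4:**
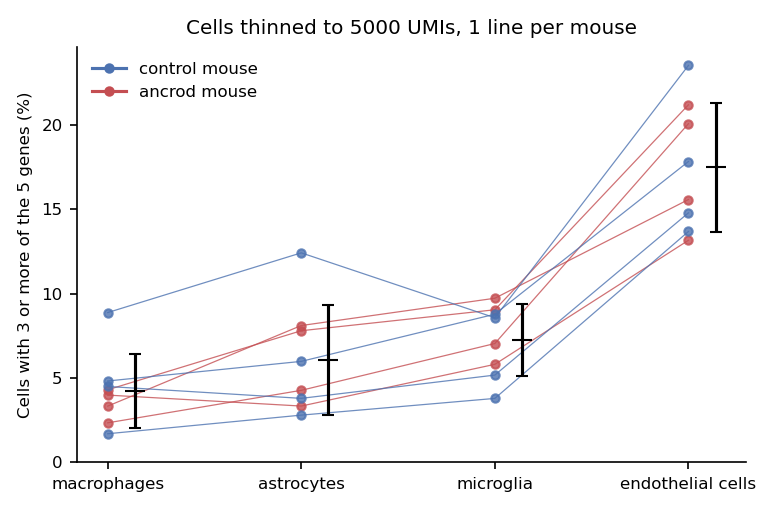
Percent of cells with at least 3 of the 5 rule genes at 5000 UMIs in microglia, macrophages, endothelial cells and astrocytes, with lines joining the values of 1 mouse, colour for treatment and bars for the mean and SD of 8 mice. Dividing cells are in the total of each class but are not counted as having the genes. Endothelial cells lie above microglia in each mouse (means 17.5 and 7.25%), and control mouse 4 is the highest in macrophages, endothelial cells and astrocytes.

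Across the 8 mice, the thinned share in microglia had a Pearson correlation of 0.615 with that in endothelial cells (exact permutation p = 0.106, adjusted p = 0.211 over 2 relations) and of 0.430 with that in macrophages (exact permutation p = 0.303, adjusted p = 0.303). Spearman's rho was 0.571 (exact permutation p = 0.151, adjusted p = 0.302) and 0.286 (exact permutation p = 0.501, adjusted p = 0.501). Without the 2 mice farthest from the median of the microglial share the Pearson values were 0.370 and 0.220, and in the 6 mice of batch 1 they were 0.580 and 0.498. With all UMIs the Pearson values were 0.792 for endothelial cells (exact permutation p = 0.032, adjusted p = 0.0641) and 0.495 for macrophages (exact permutation p = 0.21, adjusted p = 0.21), and Spearman's rho was 0.738 (exact permutation p = 0.0458, adjusted p = 0.0694) and 0.690 (exact permutation p = 0.0694, adjusted p = 0.0694). No relation passed after adjustment.

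Dividing microglia, left out above, showed the rule genes as well. At least 3 of the 5 were seen in 11.5 to 39.4% of dividing microglia over the mice (169 of 748 cells), but these cells had medians of 33939 to 43697.5 UMIs. At 5000 UMIs the share was 1.72 to 6.25%, against 3.97 to 10.2% of non-dividing microglia, and it was lower in 7 of 8 mice. The counts behind it were small, with 46 to 129 dividing cells per mouse.

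Few genes differed between ancrod and control in interferon-responsive microglia, and none by edgeR. Summed per mouse and tested with edgeR's quasi-likelihood test, 0 of 11637 genes (0.00%) passed an adjusted p of 0.05, and 231 (1.99%) had an unadjusted p under 0.05. DESeq2 called 2 of 11628 genes, Tnfrsf11a lower and Grap2 higher. Levels in the tests are CPM on library sizes scaled by TMM, and fold changes are ancrod over control. Tnfrsf11a, the receptor RANK, was at 127, 137, 139 and 129.5 CPM in control mice and at 105, 100.3, 102 and 109 CPM in ancrod mice. The log2 fold change was -0.36 (SE 0.07, edgeR unadjusted p = 0.000433, adjusted p = 1.00, DESeq2 adjusted p = 0.00061). Grap2, an adaptor of T cell receptor signalling, was at 0.144, 0.27, 0.944 and 0.469 CPM in control mice and at 1.78, 2.38, 26.3 and 6.26 CPM in ancrod mice. Ancrod mouse 3 stood far above the rest, and the log2 fold change was 4.29 with it and 2.87 without it (SE 1.00, edgeR adjusted p = 1.00, DESeq2 adjusted p = 0.00501, all mice). The summed T and NK cell markers were at 5.76 CPM in that mouse and at 7.75 CPM in control mouse 4, and their part in Grap2 was not tested. The sulfate transporter Slc26a11 (-0.35) and the exchange factor Plekhg5 (-0.47) completed the 5 lowest p-values. Nrgn, a neuronal gene of the marker list, was at 1.49 to 2.58 CPM in control mice and at 3.30 to 7.52 CPM in ancrod mice (log2 fold change 1.37, SE 0.30, edgeR adjusted p = 1.00), while the summed neuronal markers were at 4.03 to 20.2 CPM in control and 6.93 to 25.1 CPM in ancrod mice.

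The interferon genes differed little between the treatments. The 5 rule genes, given as a description, had log2 fold changes of -0.01 to 0.07, and Isg15 was at 331, 445, 358 and 331 CPM in control mice and at 410.1, 283, 330.0 and 413 CPM in ancrod mice (log2 fold change -0.03, SE 0.15, edgeR adjusted p = 1.00). Of the 24 antiviral effectors 19 had a fold change above 0, against 50.2% of all genes, with a median log2 of 0.06 (all genes 0.001). Of these, 2 had an unadjusted p under 0.05, Ifi44 (0.46) and Oas3 (0.33), where 1.99% of all genes had. The medians were 0.05 for sensors, -0.09 for GTPases, -0.09 for class I, -0.23 for class II, 0.17 for chemokines, -0.01 for homeostatic genes and -0.04 for injury-responsive genes. The lowest unadjusted p of the lists came from Axl and Ifih1. Axl was at 153, 156, 153 and 151 CPM in control mice and at 193, 201, 175 and 178 CPM in ancrod mice (log2 fold change 0.28, SE 0.07, edgeR unadjusted p = 0.00318, adjusted p = 1.00). Ifih1, the double-stranded RNA sensor MDA5, was at 129, 157, 138 and 131 CPM in control mice and at 186, 168, 164 and 173 CPM in ancrod mice (log2 fold change 0.32, SE 0.09, edgeR unadjusted p = 0.00453, adjusted p = 1.00). Both genes were named for their low unadjusted p, and neither passed the adjustment over all genes.

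**Figure D5:**
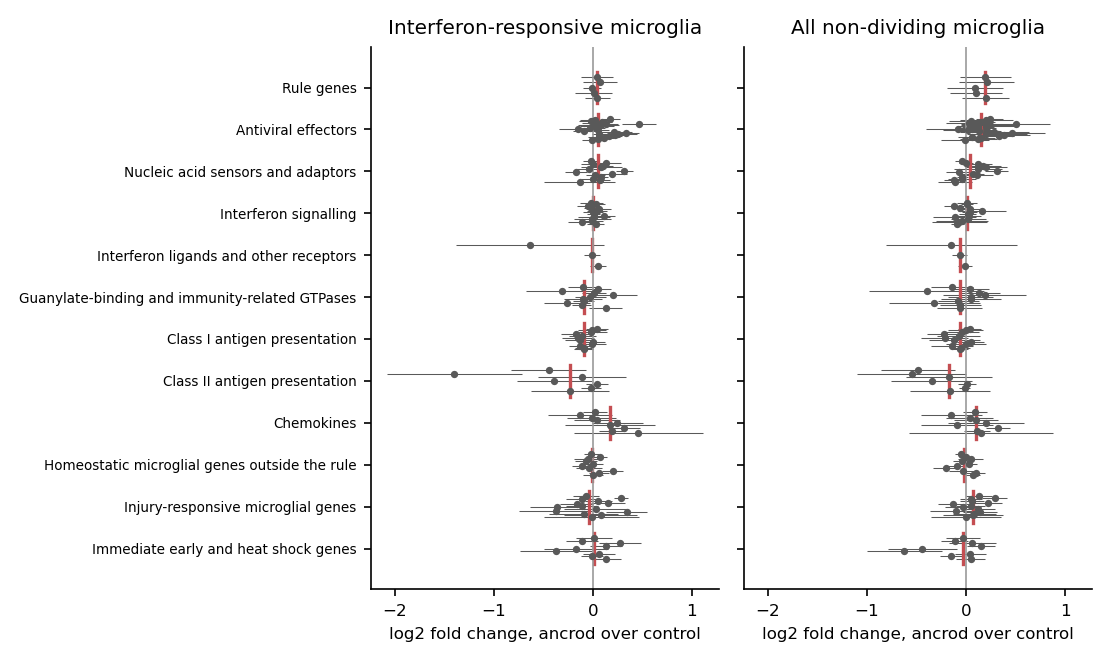
Log2 fold change of ancrod over control for each gene of the fixed lists, in interferon-responsive microglia and in all non-dividing microglia, with 1 point and its SE per gene and a red mark for the list median. Most genes lie near 0, with list medians from -0.23 to 0.17 in interferon-responsive microglia, and no gene passed an edgeR adjusted p of 0.05.

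All non-dividing microglia were tested as well, since there the interferon genes had not been used to choose the cells. Again 0 of 13848 genes (0.00%) passed in edgeR, with 568 (4.10%) at an unadjusted p under 0.05, and DESeq2 called 2, Ano4 lower and Nrgn higher (adjusted p = 0.0315 for both). Ano4, of a family of membrane channels and scramblases, was at 0.961 to 1.67 CPM in control mice and at 0.159 to 0.521 CPM in ancrod mice (log2 fold change -1.99, edgeR adjusted p = 0.931). Nrgn was at 1.42 to 2.61 CPM in control and 3.06 to 11.9 CPM in ancrod mice (log2 fold change 1.84, edgeR adjusted p = 0.931). Summed neuronal markers in the other microglia were at 8.57 to 14.1 CPM in control mice and at 8.35, 14.7, 20.0 and 73.4 CPM in ancrod mice. The part of neuronal transcripts in Nrgn was not tested. The other low p-values were those of Nrsn1 (1.46), the clock gene Per3 (-0.42) and Gng13 (1.43), also at an edgeR adjusted p of 0.931. Over all genes 52.8% had a fold change above 0 and the median log2 fold change was 0.01. The 5 rule genes had a median of 0.20 with all 5 above 0, and the lowest unadjusted p among them was 0.424. Ifit2 was at 75.2, 65.0, 38.9 and 88.0 CPM in control mice and at 106, 73.5, 67.4 and 58.6 CPM in ancrod mice. The groups overlapped, with control mouse 3 lowest and ancrod mouse 1 highest. Of the antiviral effectors 22 of 24 were above 0 with a median of 0.15, and none had an unadjusted p under 0.05 (lowest 0.052). The antiviral effectors belong to the same response and are not independent of each other, and which signal acted was not tested. Cxcl10 was at 228, 339, 300.3 and 306 CPM in control mice and at 394, 318, 378 and 379 CPM in ancrod mice (log2 fold change 0.32, edgeR unadjusted p = 0.0284, adjusted p = 0.931). Axl (0.29) and Ifih1 (0.31) also had an unadjusted p under 0.05 and an adjusted p of 0.931. In whole populations a change in the share of responding cells and a change in their level cannot be told apart.

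Whether ancrod acted differently on interferon-responsive and other microglia was tested directly, with the mouse as a block. Cells were not thinned here. Median UMIs in interferon-responsive cells were 13898, 20486, 20899.5 and 18358.5 in control mice and 19407, 19949, 17637 and 19287 in ancrod mice. The other microglia had 10748, 14686, 15841.5 and 12890, and 17655, 16233.5, 13876 and 15211. In proportion, this gap was wider in each control mouse than in any ancrod mouse, and the part of depth was not tested. No gene of 13326 (0.00%) passed in edgeR, and 1066 (8.00%) had an unadjusted p under 0.05. DESeq2 called 23, of which 22 had a positive difference of log2 fold changes and 1, Gas6, a ligand of Axl, a negative one (-0.31, named after its value was seen). In this test DESeq2 adjusted p only over genes that passed its own filter on mean count, which were far fewer than the 13326. Pag1 had the lowest p of the 23 (DESeq2 unadjusted p = 8.6e-06, adjusted p = 0.00797). The number of genes adjusted over is not given here, so the 23 have no share beside them. The 23 and the 0 are therefore not counts over the same genes. Il12b, which encodes the shared subunit of interleukins 12 and 23, had the lowest p in edgeR. It was at 20.0, 14.04, 34.2 and 26.5 CPM in interferon-responsive cells of control mice and at 32.3, 41.3, 33.4 and 56.3 CPM in those of ancrod mice. In the other microglia it was at 10.0, 8.18, 27.1 and 22.1 CPM and at 9.96, 12.4, 12.4 and 21.3 CPM, so that the difference of log2 fold changes was 1.00 (SE 0.16, edgeR unadjusted p = 5.8e-05, adjusted p = 0.527). Tlr7, the endosomal receptor for single-stranded RNA, was at 186 to 223 CPM in control and 189.8 to 248 CPM in ancrod interferon-responsive cells, and at 196 to 241 CPM in control and 175 to 208 CPM in ancrod other microglia. Its difference was 0.25 (SE 0.05, edgeR adjusted p = 0.527, DESeq2 adjusted p = 0.013). Pde7b (-0.59), Zfp251 (0.57) and Tasor (0.27) also had an edgeR adjusted p of 0.527. Of the 9 immediate early and heat shock genes, 5 had an unadjusted p under 0.05, with differences of 0.28 for Egr1, 0.18 for Jun, 0.11 for Junb, 0.36 for Hspa1a and 0.37 for Hspa1b (lowest edgeR adjusted p = 0.543). DESeq2 called 3 of them, Egr1 (adjusted p = 0.0148), Hspa1a (adjusted p = 0.0425) and Hspa1b (adjusted p = 0.0419). These genes respond to tissue handling, whose part was not tested. Other lists also had genes with an edgeR unadjusted p under 0.05, against 8.00% of all genes. They were 4 of 14 injury-responsive genes, 3 of 10 homeostatic genes, 2 of 14 sensors, 1 of 12 GTPases and 1 of 7 class II genes. No gene of the remaining lists had. Hspa1a and Hspa1b are near-identical copies whose reads cannot be told apart with certainty.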

How the data were processed

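Single-cell suspensions from 8 mice were made into 10x Genomics 3′ v3.1 libraries. The authors counted reads with Cell Ranger 7.1.0, which aligns with STAR, on GRCm39 (mm39), with intronic reads included, and deposited the resulting UMI counts of 21848 genes in every droplet, which were whole numbers. Libraries held 97861434 to 142139441 UMIs, deeper in each ancrod mouse than in each control mouse. The labels give the genotype Bl/J6 and females, the study's methods name C57BL/6N mice of both sexes, and this was not settled. Any 2 libraries shared 3 to 15 barcodes of kept droplets, and 4 barcodes were shared among interferon-responsive cells.

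From these counts, droplets were kept and called by the rule given in the report, and 2144 droplets were scored as doublets, at 0.8% per 1000 cells, but removed only in an alternative. Ratios were computed per mouse as log2(CPM + 1) differences for genes that reached 20 CPM in every mouse in the kind of cell where they were higher. Thinning drew 5000 UMIs per cell without replacement and left out shallower cells. Shares were compared with two-sided exact permutation tests over mice, and gene levels with edgeR 4.0.16 (filterByExpr, TMM, glmQLFit and glmQLFTest, default dispersion of this version, Benjamini-Hochberg over all genes, threshold 0.05) on UMIs summed per mouse, with DESeq2 1.42.0 as an alternative, in R 4.3.3 and Python 3.11.15. DESeq2 adjusted over the genes kept by its default filter on mean count. An adjusted p near 1 is printed as 1.00. The scripts were tested on simulated data. The mouse was the replicate.

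The interferon-responsive cells and the gene lists were chosen with earlier results of these data known. Text genes were those of 12 fixed lists (145 genes), the 20 highest and 10 lowest ratios and the 5 lowest p-values of each test. Promoters came from RefSeq, matched by symbol. Values of 1 listed gene are not reported here. Other depths, limits, filters, normalizations, doublet removal, batches, a replicate block and the omission of each mouse were tried as alternatives. Thinned list ratios, a filter of 20 CPM on the other microglia alone, batch 1 alone in gene tests and another edgeR dispersion method were added after seeing the data.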

Additional observations from a re-analysis of the deposited data

Results flagged for a closer look

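In groups of 4 mice, 12 of 126 groups had 1 mouse set apart from the other 3, where chance gives about 1 in 20. Of these, 7 concern control mouse 4. In interferon-responsive microglia of control mouse 4, class II and class I genes were high, with H2-Aa at 112 CPM against 32.2 to 42.3 in the other controls, H2-Ab1 at 115 against 36.4 to 48.2, H2-Eb1 at 78.0 against 35.6 to 39.2, H2-K1 at 2310.0 against 1442 to 1576 and H2-D1 at 2165 against 1470.5 to 1487. In the same cells Fos was at 1052 CPM against 1229 to 1255. The share of endothelial cells with at least 3 rule genes, with all UMIs, was 46.3% in control mouse 4 against 35.2 to 35.5%. Cxcl10 was at 896 CPM in control mouse 2 against 678 to 711, and the homeostatic transporter Slc2a5 at 35.5 CPM in control mouse 1 against 26.6 to 27.2. Among ancrod mice, Cxcl16 was at 219.9 CPM in mouse 3 against 264 to 272, Hpgd at 84.6 CPM in mouse 1 against 109 to 114 and the lipase Lpl at 229 CPM in mouse 4 against 67.7 to 88.8. Control mouse 4 and ancrod mouse 4 are the 2 mice of batch 2. In microglia with 0 rule genes detected, class I genes summed to 8961 CPM in control mouse 4 and to 5216 CPM in ancrod mouse 4, the lowest of the 8 mice, and class II genes to 804 and 279 CPM.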

How the results depend on the processing

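The absence of edgeR calls held under each edgeR alternative, with 0 genes when any mouse was left out and under other filters and normalizations in all 3 gene tests, and in batch 1 alone in the 2 tests of ancrod against control. DESeq2 gave 2 genes in interferon-responsive microglia, 2 in all non-dividing microglia and 23 for the difference of effects. For the 23, its own filter on mean count left far fewer genes to adjust over than in edgeR. What else set DESeq2 apart from edgeR was not tested. The difference in share was 0.429 points at 2000 UMIs and 1.15 at 10000, 1.76 with at least 2 rule genes and 0.482 with at least 4, and leaving out 1 mouse gave 0.398 to 2.06 points. Microglia exceeded macrophages by 2.53 to 3.48 points without 1 mouse, and by 3.60 points (exact permutation p = 0.133) without thinning, where it no longer passed. Microglia exceeded astrocytes by 1.15 points at 2000 UMIs (exact permutation p = 0.0312), where it passed, and by 0.947 to 1.90 points without 1 mouse, passing without control mouse 4. The macrophage difference was 1.38 points at 2000 UMIs and 5.06 at 10000. The difference from endothelial cells was -10.9 to -9.56 points without 1 mouse, -1.77 at 2000 UMIs, -20.5 at 10000 and -26.4 with all UMIs, always in 8 of 8 mice. Replicate numbers were not taken as pairs. Same-numbered mice had correlated deviations of -0.34, -0.26, 0.01 and -0.03 in interferon-responsive cells, and of -0.33, -0.39, 0.02 and 0.21 in all non-dividing microglia. Differently numbered mice ranged from -0.62 to 0.67 in interferon-responsive cells, so this check cannot exclude pairing. With the number as a block the share difference had an exact permutation p of 0.375 (smallest possible 0.125), and 0 genes passed in interferon-responsive and in all non-dividing microglia. At medians of 13898 to 20899.5 UMIs per cell, a rule gene without a UMI is not shown to be absent from that cell.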
